A study of Homo sapiens with 6 samples.

Results

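The genes described here are the noncoding host genes of small nucleolar RNAs (snoRNAs) after knock-down of SPINK2 in FUJIOKA, a cell line of human acute myeloid leukaemia. They were taken by name, as the genes called SNHG with a number together with GAS5, ZFAS1, EPB41L4A-AS1 and DANCR, a rule that uses no measured value but was set with earlier results of these data known. In the deposited table of 63236 genes 28 names fit, 24 of them SNHG genes, and 27 had a mean over 0, the exception being SNHG18. Of these 25 had enough reads to be tested, among 16213 genes tested in all, and 23 had a mean of at least 50 normalised reads. All FUJIOKA cells carried a doxycycline-inducible Tet-pLKO-puro lentiviral shRNA and received doxycycline, with 3 libraries of a scrambled control shRNA (shNEG) and 3 of a SPINK2 shRNA (shSPINK2). The labels name 2 SPINK2 shRNAs without assigning either to a given library. Nothing in the labels says whether the libraries of a group came from separate cultures, so the p-values measure the spread between these libraries, which may be technical. All libraries come from 1 cell line.

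snoRNAs guide the chemical modification of ribosomal RNA. Box C/D snoRNAs direct methylation of riboses and box H/ACA snoRNAs direct the conversion of uridine to pseudouridine, while small Cajal body RNAs do the same for spliceosomal RNAs. In human cells most of them are cut out of introns, so a host gene yields a small RNA from its introns and a spliced RNA from its exons, and the counts here cover the exons. The spliced RNA of several hosts, GAS5 among them, is translated poorly and removed by nonsense-mediated decay, a pathway that destroys RNAs with an early stop codon. Many hosts start with a 5′ terminal oligopyrimidine (TOP) tract, a cytidine followed by a run of pyrimidines, which is shared with ribosomal protein genes and places their RNAs under the control of the mTOR pathway and the RNA-binding protein LARP1.

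The name was checked against the annotation. Of the 28 genes, 27 held at least 1 snoRNA or small Cajal body RNA gene of RefSeq inside their span, 144 such genes in all, and SNHG27 held none. The TOP tract was looked for at the annotated transcript starts, as C followed by at least 4 pyrimidines on the transcribed strand. It stood at the first base of the canonical GENCODE transcript in 3 of the 25 genes tested (12%), against 5.22% of genes tested with a mean of at least 50 and 20 of 22 protein-coding TOP genes. At the start of at least 1 annotated transcript it stood in 17 of the 25 (68.0%) against 19.6%, but the host genes have a median of 14 annotated transcripts and the other genes 8. At the RefSeq start it stood in 5 of the 21 that matched. The share was 5.40% of the 9530 matched genes tested with a mean of at least 50, and 4.04% of all 27305 RefSeq promoters. The snoRNA genes are thus a property of nearly the whole set, whereas the TOP tract at the annotated start is not. The starts of host genes that the results below turn on are shown as 30 bases of GRCh38, 10 before the annotated start and 20 from it on, with the run in capitals where it begins within 10 bases of the start. In GAS5 (chr1:173867970-173867999, minus strand) and ZFAS1 (chr20:49278632-49278661, plus strand) the run is at the start, in SNHG16 (chr17:76557765-76557794, plus strand) and SNHG1 (chr11:62855903-62855932, minus strand) it lies just before it, and SNHG14 (chr15:25193303-25193332, plus strand) and EPB41L4A-AS1 (chr5:112160516-112160545, plus strand) have none there. The start shown for SNHG14 is that of its canonical transcript and lies inside the gene, which begins at 24978583 and has 142 annotated transcripts. It is thus not the start of the whole gene.
GAS5: accatactgtCTTTTCgaggtaggagtcga
ZFAS1: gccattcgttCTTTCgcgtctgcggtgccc
SNHG16: cgttCTTTTCgaggtcggccgcgtggctgg
SNHG1: gggCCTCTgcggcatggtatttaatcgtct
SNHG14: aaggacgtgccctgagttgggtcgatgatg
EPB41L4A-AS1: tcatgaattctgtcgggtcccaaaatacgt

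Reads per library are not listed in the deposited table but follow from its digits, and were recovered for 99.4% of the genes that carry an adjusted p-value there and for each of the 27 host genes. The recovered reads sum to between 31569859 and 32283021 per library. The 105 genes without a solution are mostly among the most abundant, and all genes without one carry 17.2% of the reads. SPINK2 itself had 53, 63 and 56 reads under the control shRNA against 6, 9 and 7 under shSPINK2, so it fell by 87.2% (log2 fold change -2.97 ± 0.27 (SE), edgeR adjusted p = 5.14e-11). The myeloid markers PTPRC, CD33, MPO and SPI1 had at least 1587 reads in each library, while KIT had at most 2 and CD34 at most 31. T cell and erythroid markers had at most 5 reads. The B cell marker CD79A had 143 to 251 reads and the 3 B cell markers together 175 to 184 in shNEG and 230 to 277 in shSPINK2, whereas MS4A1 had at most 1. The epithelial marker KRT8 had at most 121 reads with EPCAM and KRT19 at 0, and the 3 fibroblast markers together had 205 to 215 in shNEG and 151 to 168 in shSPINK2 with COL1A2 at 0. The part of other cell types in the results below was not tested. As no source used here describes molecular identifiers, a read is not necessarily a molecule of its own.

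Silencing of SPINK2 was accompanied by changes of the host genes in both directions. At an adjusted p under 0.05, 9 of the 25 tested were higher in shSPINK2 and 6 were lower, which is 36.0% and 24.0%, and over all genes tested 29.4% were higher and 28.9% lower. In either direction 15 were called (60%) against 58.3% of all genes, so the share called was close to the background. An unadjusted edgeR p under 0.05 gave the same number, 15. Above a minimum mean of 50 the shares were 65.2% of the host genes, 68.4% of all genes and 51.4% of long noncoding RNA genes. In 16 of the 25 (64.0%) the normalised levels of the groups did not overlap, against 62.4% of all genes. The median log2 fold change was -0.04 over the host genes and 0.01 over all genes, and the median absolute change was 0.28 and 0.27. No host gene changed by more than 1 on the log2 scale, and the fold changes ran from -0.58 for SNHG1 to 0.78 for GAS5. The plot of reads by library shows that the libraries of a group lie close together for most of these genes and that the groups part in either direction.

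**Figure D1:**
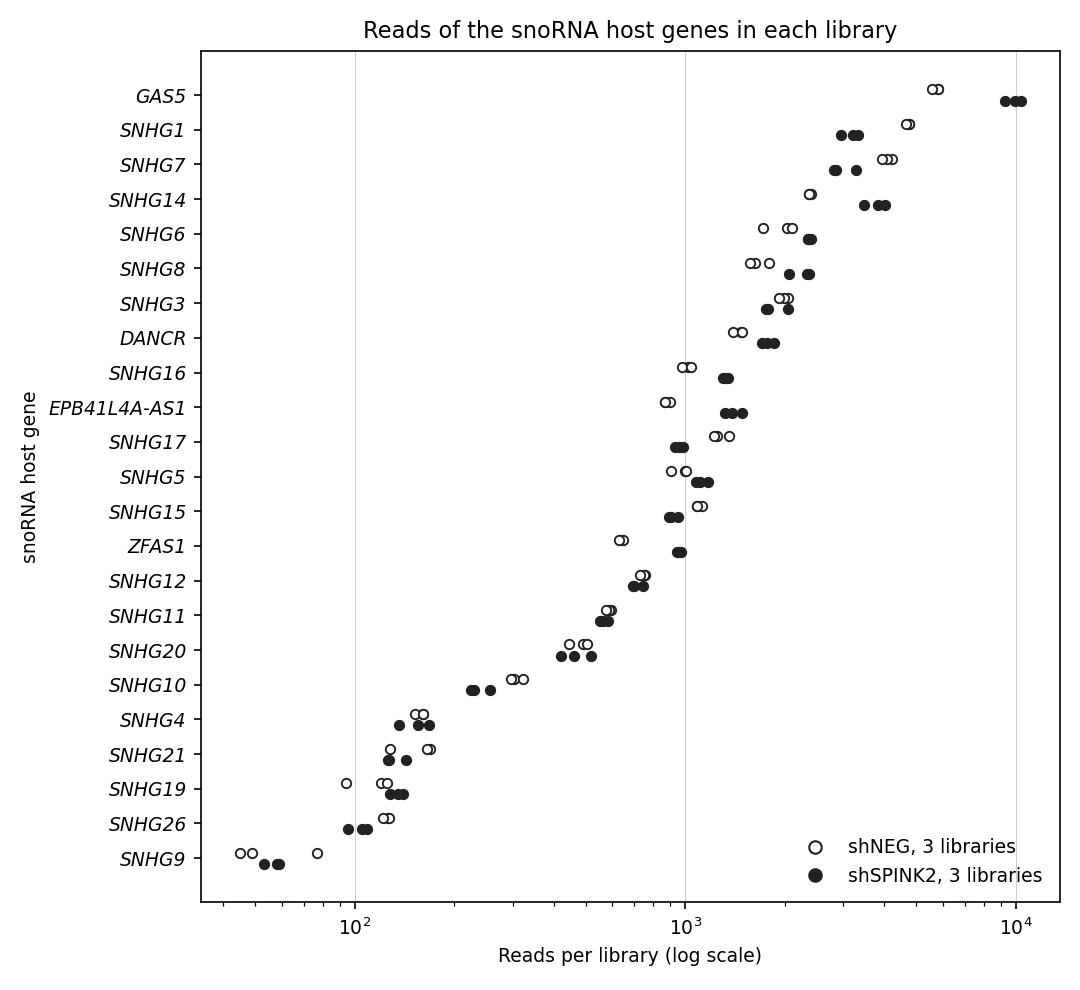
Reads of the 23 snoRNA host genes with a mean of at least 50 normalised reads, on a log axis, with 1 point per library, open for shNEG and filled for shSPINK2. GAS5 is the most abundant, with 5587 to 5819 reads in shNEG and 9267 to 10336 in shSPINK2, and SNHG1 and SNHG7 below it lie the other way round.

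GAS5, a host of 10 box C/D and 1 H/ACA snoRNA genes whose RNA accumulates in growth-arrested cells, showed the largest change. It had 5819, 5797 and 5587 reads in the control libraries against 9267, 10336 and 9937 after knock-down. The groups were far apart and the level rose from 179.7 ± 5.12 to 307.9 ± 13.4 CPM (reads scaled to a common library size in the usual CPM unit, mean ± SD, n = 3), which is 1.71-fold (log2 fold change 0.78 ± 0.04, adjusted p = 3.12e-16). GAS5 (ENSG00000234741) lies on chromosome 1 from 173858559 to 173868882. Per kilobase of its canonical transcript it also had the highest level of these genes, at 317 CPM, followed by SNHG1 with 106 CPM and SNHG16 with 73.4 CPM, and per kilobase of all annotated exons it was again first with 49.4 CPM before SNHG1 with 31.0 CPM and SNHG6 with 26.8 CPM.

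Of the 9 box C/D hosts 6 were higher, beside the 29.4% of all genes, and each of these 6 shares exon sequence with another gene. SNHG14, the long transcript of the imprinted Prader-Willi region on chromosome 15 with 83 box C/D snoRNA genes in its span, had 2393, 2361 and 2372 reads in shNEG and 3466, 4002 and 3825 in shSPINK2. Its log2 fold change was 0.66 ± 0.05 (adjusted p = 1.09e-13), with a narrow shNEG group and a wider shSPINK2 group well above it. ZFAS1, the host of 3 box C/D snoRNA genes beside ZNFX1 on chromosome 20, had 641, 649 and 629 reads in shNEG and 959, 944 and 967 in shSPINK2, and rose 1.49-fold (log2 fold change 0.58 ± 0.06, adjusted p = 1.94e-10). The host of the SNORD1 genes, SNHG16, had 1018, 978 and 1037 reads against 1302, 1328 and 1342, a log2 fold change of 0.39 ± 0.05 (adjusted p = 7.53e-08). The groups of each of these genes were separate.

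SNHG6 and SNHG5, which host SNORD87 and the SNORD50 genes, rose less. SNHG6 had 2035, 2107 and 1717 reads in shNEG and 2353, 2404 and 2356 in shSPINK2 (log2 fold change 0.28 ± 0.06, adjusted p = 8.39e-05), and 1 shNEG library lay below the other two. SNHG5 had 1000, 1002 and 904 reads against 1103, 1171 and 1080 (log2 fold change 0.20 ± 0.06, adjusted p = 0.0025). Its groups were close, and without the shNEG library of 904 reads the adjusted p was 0.064 with a log2 fold change of 0.14. SNHG19, host of SNORD60, had 94 to 125 reads in shNEG and 128 to 140 in shSPINK2, with a log2 fold change of 0.25 ± 0.13 that did not pass (adjusted p = 0.092).

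The other 2 box C/D hosts were lower. SNHG1, which holds 8 box C/D snoRNA genes from SNORD22 to SNORD31 on chromosome 11 from 62851978 to 62855953, had 4736, 4743 and 4651 reads in shNEG and 2961, 3209 and 3326 in shSPINK2. Its level fell from 148 ± 2.53 to 99.0 ± 3.97 CPM (log2 fold change -0.58 ± 0.04, adjusted p = 4.93e-13), so 2 abundant hosts of many box C/D snoRNA genes, GAS5 and SNHG1, moved in opposite directions in the same libraries. SNHG26, host of SNORD93, had 126, 127 and 122 reads against 95, 105 and 109 (log2 fold change -0.28 ± 0.12, adjusted p = 0.045). That call was lost with DESeq2 (adjusted p = 0.17) and on leaving out any single library but 1, with adjusted p-values from 0.056 to 0.12.

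Of the 11 box H/ACA hosts 3 were higher (27.3%), 3 lower (27.3%) and 5 without a call, close to the 29.4% and 28.9% of all genes. Of the higher ones EPB41L4A-AS1, the host of SNORA13 on chromosome 5, had 868, 900 and 869 reads in shNEG and 1388, 1318 and 1486 in shSPINK2, and rose 1.59-fold (log2 fold change 0.67 ± 0.05, adjusted p = 3.38e-12). SNHG8, host of SNORA24, had 1629, 1789 and 1569 reads against 2367, 2062 and 2327 (log2 fold change 0.44 ± 0.06, adjusted p = 5.75e-08). DANCR, host of SNORA26 and named for its part in holding back differentiation, had 1475, 1394 and 1482 reads against 1762, 1699 and 1859, with a log2 fold change of 0.29 ± 0.05 (adjusted p = 6.76e-06). In these 3 genes each shSPINK2 library lay above each shNEG library.

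The lower H/ACA hosts were SNHG7, SNHG17 and SNHG15. SNHG7, which holds the SNORA17 genes on chromosome 9, had 4222, 4084 and 3923 reads in shNEG and 2861, 2822 and 3270 in shSPINK2, and fell to 0.73 of the control level (log2 fold change -0.45 ± 0.05, adjusted p = 1.19e-09). SNHG17, with the SNORA71 genes on chromosome 20, had 1245, 1350 and 1224 reads against 984, 930 and 959 (log2 fold change -0.41 ± 0.05, adjusted p = 1.11e-07). SNHG15, host of SNORA9, had 1081, 1125 and 1087 reads against 903, 894 and 947 (log2 fold change -0.27 ± 0.05, adjusted p = 6.01e-05). Here each shSPINK2 library lay below each shNEG library.

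No call was made for SNHG3, SNHG12, SNHG11, SNHG4 and SNHG9, whose log2 fold changes lay between -0.09 and -0.01. SNHG3, host of the SNORA73 genes, had 2042, 1981 and 1919 reads in shNEG and 1754, 1780 and 2047 in shSPINK2 (log2 fold change -0.09 ± 0.05, adjusted p = 0.11). The shSPINK2 library of 2047 reads lay within the shNEG group after normalisation, and without it the log2 fold change was -0.15 with an adjusted p of 0.0087. SNHG12 had 727 to 752 reads against 696 to 745 (adjusted p = 0.38) and SNHG11, which neighbours SNHG17 and also holds a SNORA71 gene, had 574 to 594 against 550 to 582 (adjusted p = 0.49). SNHG4 had 152 to 161 reads against 136 to 168 and SNHG9 had 45 to 77 against 53 to 59, so the SE of 0.19 of SNHG9 leaves a change of the size seen in SNHG15 within reach of the spread.

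The hosts of small Cajal body RNAs were at or below the control level. SNHG10, host of SCARNA13, had 303, 297 and 322 reads in shNEG and 256, 229 and 224 in shSPINK2 (log2 fold change -0.38 ± 0.09, adjusted p = 3.26e-04). SNHG21, host of SCARNA15, had 169, 128 and 165 reads against 143, 126 and 127, and its log2 fold change of -0.22 ± 0.12 did not pass (adjusted p = 0.11). Without the shNEG library of 128 reads it was -0.36 with an adjusted p of 0.016. SNHG20, host of SCARNA16, had 443 to 504 reads against 421 to 518 (log2 fold change -0.04 ± 0.07). Among the genes with a mean under 50, SNHG28 had 26 to 34 reads against 28 to 43 and SNHG25 had 19 to 20 against 8 to 24, neither with a call, and SNHG22 with 6 and SNHG27 with 5 reads over all libraries were too low to be tested.

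**Figure D2:**
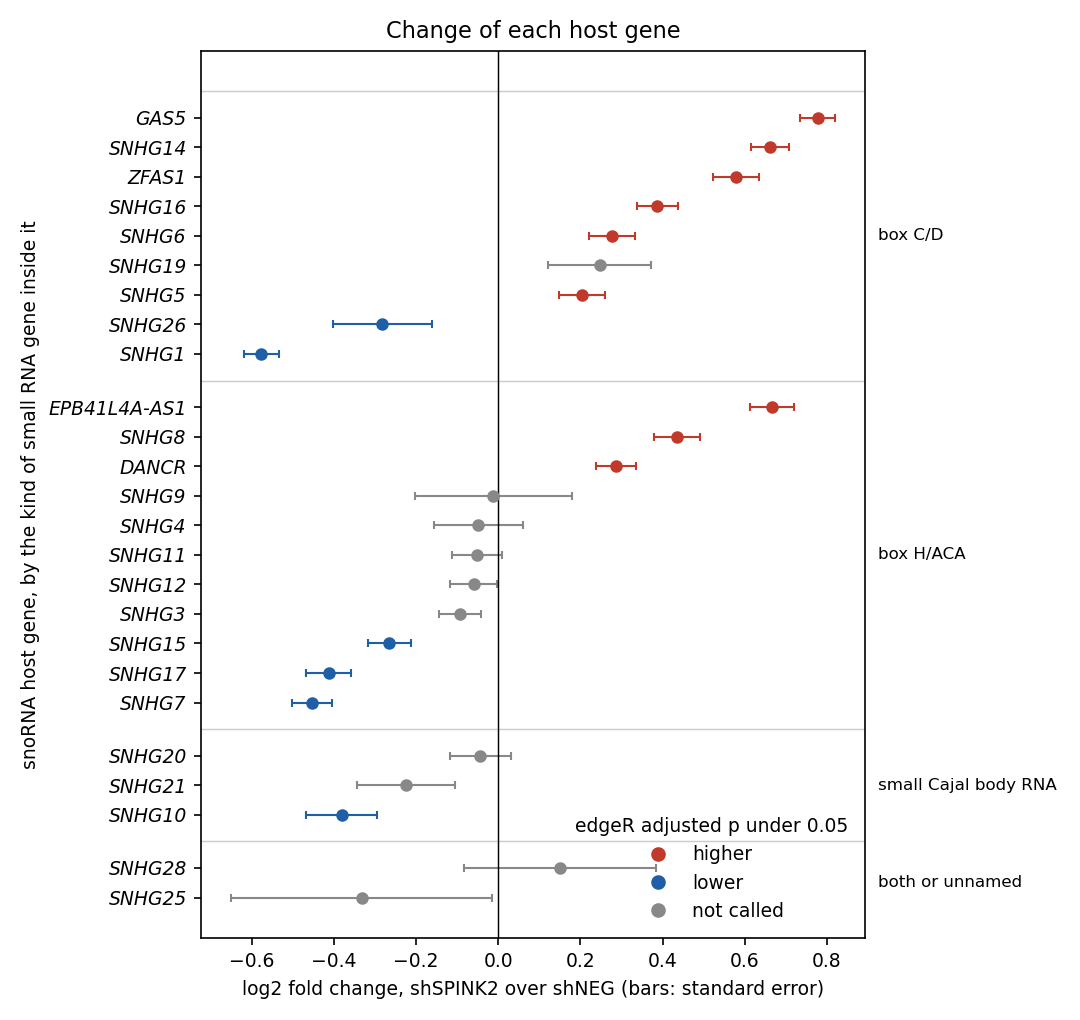
log2 fold change of shSPINK2 over shNEG for the 25 host genes tested, with its standard error, grouped by the kind of small RNA gene that each holds most of. Red is higher and blue lower at an edgeR adjusted p under 0.05, and grey is not called. The 9 box C/D hosts run from -0.58 to 0.78 and the 11 box H/ACA hosts from -0.45 to 0.67, so both classes hold genes on either side of 0.

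Set side by side, the 9 box C/D hosts had a median log2 fold change of 0.28 with 6 higher and 2 lower, the 11 box H/ACA hosts a median of -0.05, and the 3 hosts of small Cajal body RNAs a median of -0.22 with 1 lower. The difference between the classes was not tested, and the number of snoRNA genes did not order the changes, since the hosts with the most of them, SNHG14, GAS5 and SNHG1, gave 2 of the 3 largest rises and the largest fall. A transcript with a TOP tract at its start is annotated for 8 of the 9 higher genes, the exception being SNHG14, for 3 of the 6 lower genes and for 6 of the 10 without a call. The numbers of annotated transcripts per gene ran from 8 to 142 in the higher genes, 10 to 118 in the lower genes and 2 to 53 in the rest. Of the 3 genes with the tract at the first base of the canonical transcript, GAS5 and ZFAS1 rose and SNHG12 had a log2 fold change of -0.06 ± 0.06. At the RefSeq start the tract stood in SNHG5 and ZFAS1, which were higher, and in SNHG12, SNHG4 and SNHG19, which had no call. The RefSeq start of GAS5 did not have it.

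Many host genes share exon sequence with a neighbour, and the strand setting of the counting is not stated in the sources used here, so reads of overlapping genes may not be told apart. In GENCODE release 44 the exons of 18 of the 25 overlap exons of another gene that is not a small RNA gene, including each of the 9 higher ones. The 7 without such an overlap, SNHG1, SNHG9, SNHG11, SNHG15, SNHG17, SNHG19 and SNHG25, had 0 higher and 3 lower, with a median of -0.27. GAS5-AS1, on the strand opposite GAS5, had 23 to 32 reads against 17 to 19. EPB41L4A, opposite EPB41L4A-AS1, had 46 reads over all libraries. ZNFX1, opposite ZFAS1, had a log2 fold change of 0.11 ± 0.05 (adjusted p = 0.042) and PRSS12, opposite SNHG8, one of 0.19 ± 0.05 (adjusted p = 0.0016), both smaller than that of the host gene. Beside the lower hosts, DIPK1B, opposite SNHG7, fell by 0.30 on the log2 scale (SE 0.05, adjusted p = 2.82e-06). GLRX5, opposite SNHG10, fell by 0.20 (SE 0.05, adjusted p = 2.95e-04). SIL1, opposite SNHG4, rose by 0.84 (SE 0.05, adjusted p = 1.78e-15) where SNHG4 had no call.

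SNRPN, which lies upstream on the same strand as SNHG14 and shares 141 exon bases with it, had 920 to 959 reads in shNEG and 1411 to 1535 in shSPINK2, a log2 fold change of 0.65 ± 0.05 (adjusted p = 2.16e-12) beside 0.66 for SNHG14. UBE3A, which SNHG14 runs across on the opposite strand, had a log2 fold change of -0.14 ± 0.05 (adjusted p = 0.014). RCC1, which shares 242 exon bases with SNHG3 on the same strand, fell by 0.67 on the log2 scale (SE 0.04, adjusted p = 7.16e-15) where SNHG3 had no call, and SEC14L1, which shares 460 with SNHG20, fell by 1.25 (SE 0.04, adjusted p = 1.55e-20) where SNHG20 had none. PWAR5, which shares 3180 exon bases with SNHG14 on its strand, had a log2 fold change of 0.31 ± 0.16 and no call (adjusted p = 0.091). Whether a host and its neighbour differed in their change was not tested.

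The small RNAs themselves are hardly covered by these mRNA libraries. Of 138 snoRNA and small Cajal body RNA genes that GENCODE places inside the host genes, 38 had any read, 9 were tested and 2 were called. Over all genes tested 58.3% were called, but the highest mean of these small RNA genes was 57.6 normalised reads, which limits what can be called. SNORD104, inside SNHG25, had 55, 48 and 34 reads in shNEG and 83, 62 and 65 in shSPINK2 (log2 fold change 0.61 ± 0.19, adjusted p = 0.0058). SNORA71C, inside SNHG17, had 21, 36 and 41 reads against 14, 17 and 28 (log2 fold change -0.74 ± 0.28, adjusted p = 0.025). SNORD30, inside SNHG1, had at most 2 reads in a library. The snoRNAs of GAS5 were not analysed here, since release 44 places none inside it on its strand, and a change of a host RNA gives no value for its snoRNAs.

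Lists of related genes were set beside the host genes. Of 8 core proteins of the snoRNA particles 2 were higher and 4 lower, with a median log2 fold change of -0.13. NOP58 and NOP56, the paired scaffold proteins of box C/D particles, fell by 0.36 and 0.35 on the log2 scale (SE 0.04 each, adjusted p = 1.27e-08 and 7.15e-09), and SNU13 and NOP10 rose by 0.20 and 0.19 (adjusted p = 1.43e-04 and 0.0012). Of 12 assembly factors 0 were higher and 6 lower. The lowest were NAF1, a chaperone of H/ACA particles, with a log2 fold change of -0.36 ± 0.06 (adjusted p = 1.22e-05), and the nucleolar phosphoprotein NOLC1 with -0.28 ± 0.04 (adjusted p = 9.66e-07), and the called ones nearest to 0 were PIH1D1 with -0.13 and SHQ1 with -0.16. With an unadjusted p under 0.05 the number in this list was also 6.

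Protein-coding snoRNA hosts had 4 higher and 10 lower among 18 tested, with a median of -0.20. The other 5 of the 23 listed, EEF2, HSPA8, RACK1, RPSA and TPT1, had no recovered reads and were not tested. EEF2, RACK1 and TPT1 are also in the list of TOP genes below, so the counts of the hosts may differ from those of the full list. RCC1 and SNRPB were lowest (SNRPB -0.49 ± 0.04, adjusted p = 1.74e-11), and EEF1B2 and EIF4A2, both translation factors, were highest with 0.50 ± 0.04 and 0.40 ± 0.04 (adjusted p = 6.42e-12 and 2.85e-10). The protein-coding TOP genes outside the ribosomal proteins had 10 higher and 0 lower among the 13 tested and a median of 0.33. NOP53 and EIF3E rose most, by 0.75 ± 0.05 and 0.51 ± 0.04 (adjusted p = 1.03e-13 and 3.03e-11), and FAU and EIF3H least, both by 0.22. With an unadjusted p the number was again 10. Another 9 of that list, EEF1A1 and TPT1 among them, are too abundant for their reads to be recovered and were not tested, and EEF1G is listed at 0. The host lncRNAs with 9 higher and 6 lower were thus more divided than this list, a difference that was not tested.

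Regulators of TOP RNAs had 4 higher and 9 lower among 15, with a median of -0.11. LARP1B and LARP4, relatives of LARP1, were lowest with log2 fold changes of -0.66 ± 0.05 and -0.53 ± 0.05 (adjusted p = 3.77e-12 and 9.25e-11), and TSC2, which restrains mTOR, and TIA1 were highest with 0.24 and 0.20. LARP1 itself changed less, with -0.11 ± 0.04 (adjusted p = 0.013), and MTOR had -0.20 ± 0.04 (adjusted p = 1.61e-04). Of 18 nonsense-mediated decay factors 1 was higher and 8 were lower, with a median of -0.085. EIF4A3, a core protein of the exon junction complex, and SMG5 were lowest with -0.39 ± 0.04 and -0.31 ± 0.04 (adjusted p = 9.25e-10 and 1.44e-07), MAGOH had -0.13, and the kinase SMG1 was the one that rose, by 0.28 ± 0.04 (adjusted p = 1.83e-06). These lists were chosen with results of these data known and are described by their counts beside the 29.4% and 28.9% of all genes.

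The guide strands of both SPINK2 shRNAs named in the labels are shown because short matches to a guide can lower other RNAs. The methods of the study describe the first alone, so the second may not bear on these libraries. Their bases 2 to 8, the seed, are in capitals.
shRNA1: tATTATGAccaccttccctga
shRNA2: tATACTGAgagcagtttggcg
Canonical transcripts of 5 of the 25 host genes tested (20.0%) held a match to the first seed, against 15.3% of all genes tested, and 3 of them were higher (SNHG14, SNHG8 and DANCR), 1 lower (SNHG1) and 1 without a call (SNHG4). The second seed matched 5 as well (20.0% against 19.3%), of which SNHG6 and EPB41L4A-AS1 were higher and SNHG11, SNHG4 and SNHG28 without a call. SNHG7, SNHG17, SNHG15, SNHG10 and SNHG26, which were lower, held neither match in the canonical transcript, and other transcripts were not searched. The part of either guide in these changes was not tested.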

How the data were processed

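RNA of FUJIOKA cells was sequenced as paired reads of 150 bases from mRNA libraries, 3 of shNEG and 3 of shSPINK2. Read quality was inspected by the authors in FastQC. They used STAR (2.7.11 in the submitters' processing notes) for alignment to hg38, featureCounts for the counts and DESeq2 (1.40.0 in the same notes) for the comparison. The annotation release and strand setting are not given in the sources used here. The deposited table of that comparison holds 1 signal per gene, the mean over all 6 libraries of the counts divided by size factors. It also holds the authors' log2 fold change with its standard error, and the authors' test statistic, p-value and adjusted p-value, which are not reported here.

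Genes with 1 read in 1 library fix the size factors, which differ by at most 4.85%. For each gene the set of whole reads was sought that gives the deposited mean when weighted by them and whose 2-group negative binomial fit returns the deposited log2 ratio within 5e-14, with the dispersion taken from the standard error. The authors' comparison served only as this key, and the direction of the groups follows from it. A single solution was found for 17290 genes among the 17395 that carry an adjusted p-value. The recovery and the test were checked on simulated data. Recovered libraries have no replicate number, and their order within a group (a, b and c) is by size factor.

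The recovered reads were tested with edgeR (4.0.16) by the quasi-likelihood test with TMM factors and filterByExpr, and p-values were adjusted by the Benjamini-Hochberg method over all 16213 genes tested, of which 9460 were called at 0.05. Standard errors are the absolute log2 fold change over the root of the F statistic, and CPM are computed from the recovered reads with TMM factors. Positions, exons and starts are from GENCODE release 44 and snoRNA genes from RefSeq (GRCh38.p14), which gives no strand here. The members and lists were chosen with earlier results of these data known. Every member may be named, those with a mean of at least 50 with values, and of each list the 2 highest and 2 lowest called genes. Other genes named were chosen for their overlap with a member or as markers, and LARP1 and MTOR because the background names them. Alternatives were other thresholds, minimum means, centring, DESeq2, its size factors, no filter, subsets of the members and leaving out each library. R 4.3.3 and Python 3.11.15 were used. Some items are not reported here.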

Additional observations from a re-analysis of the deposited data

How the results depend on the processing

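No paired analysis was possible because the recovered libraries carry no replicate number. Asking for a log2 fold change over 1 left 0 higher and 0 lower host genes and one of 1.5-fold left 3 higher (GAS5, EPB41L4A-AS1 and SNHG14) and 0 lower. SNHG genes alone gave 5 higher and 6 lower. No host gene tested is free of exons shared with any other gene, so that alternative gave no value. Setting small RNA genes aside, an alternative chosen after seeing the data, left 0 higher and 3 lower with a median of -0.27. An adjusted p under 0.01, minimum means, centring, DESeq2, its size factors, no filter and the genes under older symbols kept both counts within 1.5 times. Leaving out each library gave 8 to 9 higher, 5 to 7 lower, a median from -0.072 to 0.027 and a log2 fold change of SPINK2 from -3.14 to -2.86. Over the alternatives run for each host gene, 191 of 200 values kept the call or the lack of one. Another 7 lost the call (SNHG26 in 6, SNHG5 in 1) and 2 gained one (SNHG3 and SNHG21). In some genes without a call the sign changed, as in SNHG9 with -0.01 in the main fit and 0.25 without shNEG library b. Genes under 50 reads have standard errors of 0.23 and 0.32, which limits what can be called.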

Other observations

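Another 4 genes that GENCODE release 44 names SNHG29 to SNHG32 stand in the deposited table under older symbols and so fall outside the choice by name. LRRC75A-AS1, now SNHG29 and host of 3 box C/D snoRNA genes, had 26303, 28321 and 26752 reads in shNEG and 45605, 42422 and 44763 in shSPINK2, more than any gene described above, and a log2 fold change of 0.70 ± 0.04 (edgeR adjusted p = 4.03e-15). C6orf48, now SNHG32 and host of 2, had 5914, 6024 and 5912 reads against 7735, 7956 and 8111 (log2 fold change 0.41 ± 0.04, adjusted p = 1.55e-10). LINC02001, now SNHG30 and host of 1 box C/D snoRNA gene, fell by 0.26 on the log2 scale (SE 0.08, adjusted p = 0.0043), with 330 to 359 reads against 281 to 295. AC016708.1, now SNHG31, had 35 to 44 reads against 16 to 30 and fell by 0.84 (SE 0.24, adjusted p = 0.0032). In each of the 4 the groups did not overlap, as in 62.4% of all genes tested. With them the counts are 11 higher and 8 lower of 29 tested, beside 29.4% higher and 28.9% lower of all genes, and the median stays at -0.04.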
